A study of Mus musculus with 6 samples.

Results

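The genes described here are 10 G protein-coupled receptor genes of fibroblasts, chosen by name from the 56953 genes in the table: Lpar1, Lpar4 and Lpar6 for lysophosphatidic acid, S1pr2 and S1pr3 for sphingosine-1-phosphate, F2r for thrombin, Ednra and Ednrb for endothelin, Agtr1a for angiotensin II and Bdkrb2 for bradykinin. RNA was sequenced from mouse embryonic fibroblasts (MEFs), connective tissue cells grown from embryos, in 3 libraries labelled WT and 3 labelled GαqKO. The study describes the GαqKO cells as lacking Gαq and Gα11, the closely related alpha subunits encoded by Gnaq and Gna11. Both groups were grown in the same serum-containing medium with no further treatment named. WT and GαqKO cells are separate MEF cultures obtained from another laboratory, and how many embryos or clones each stands for is not given in the sources used here, so genotype and other differences between the lines cannot be told apart. The study states 3 biological replicates per genotype.

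These receptors sit in the plasma membrane and pass the binding of an extracellular ligand to heterotrimeric G proteins inside the cell. Subunits of the Gq class activate phospholipase C beta, which raises calcium and activates protein kinase C. Few of the receptors use Gq alone. The lysophosphatidic acid and sphingosine-1-phosphate receptors and the thrombin receptor also couple to Gi or to G12 and G13, and Lpar6 is known mainly for G12 and G13, so the group is named here by ligand. Serum carries lysophosphatidic acid and sphingosine-1-phosphate, and in fibroblasts these lipids, thrombin, endothelin, angiotensin II and bradykinin are known to act on contraction, migration and matrix production.

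The unit is the normalized count, a read count per gene scaled by 1 factor per library. These values summed to between 11392429 and 11483486 per library, and the 5 libraries with recovered reads held 9853000 to 12229175 reads. Gnaq itself was not lower but slightly higher in the libraries labelled GαqKO, at 1926 ± 36.0 normalized counts (SD, n = 3) against 1691 ± 48.5 (SD, n = 3) in WT. Gna11 was lower in each of them, at 452 ± 28.7 normalized counts (SD, n = 3) against 2148 ± 29.0 (SD, n = 3). The study reports the lack of Gαq protein in the GαqKO cells from Western blot and immunofluorescence. A gene total cannot tell an intact from a truncated transcript, so directions below are drawn from the labels. The fibroblast genes Col1a1, Col1a2, Vim and Fn1 were abundant in both groups, and the summed level of the 10 fibroblast markers was 84228 to 89978 normalized counts in WT and 62442 to 65644 in the libraries labelled GαqKO. With limma all 9 tested fibroblast markers had an adjusted p under 0.05, 4 upward and 5 downward. Of all genes tested 65.8% had such an adjusted p, so this count does not set the markers apart. Thy1 reached the 10 normalized counts needed for testing in the GαqKO libraries alone, so it had to differ. Col1a1 was at 16671 and 5774.5, Col1a2 at 13451 and 10455, Fn1 at 11826 and 7117, Vim at 41785 and 33508 and Col3a1 at 2710 and 2393 normalized counts in WT and GαqKO. In the other direction were Pdgfrb at 892 and 1046, Pdgfra at 19.6 and 2320, Dcn at 32.1 and 1663 and Thy1 at 0.696 and 64.9 normalized counts in WT and GαqKO, while Lum was at 4.03 normalized counts or less in each library. The 6 epithelial markers summed to 515 to 541 normalized counts in WT, mostly Krt14 and Cdh1, and to 10.1 to 23.1 in the libraries labelled GαqKO, while Epcam stayed at 8.09 or less in each library. For the other lists the sums in WT and GαqKO were 676 to 852 and 309 to 348 for mural cells, 103 to 119 and 301 to 349 for neural crest derivatives, 105 to 120 and 70.4 to 104 for macrophages, 12.6 to 23.4 and 18.8 to 26.6 for endothelium, and 3.05 to 24.0 and 6.57 to 8.06 for skeletal muscle. The part of these differences between the lines in the receptor values was not tested. In bulk RNA, fewer cells that express a gene and less RNA per cell cannot be told apart.

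The receptors moved in different directions rather than together. S1pr3 rose from 4.38 to 432 normalized counts on average, Bdkrb2 rose 2.49-fold, S1pr2, Lpar4 and Lpar1 rose by smaller amounts, and F2r, the most abundant of them, fell from 1155 to 577 normalized counts per kilobase of exon. The remaining 4 genes gave no comparison, because Lpar6 and Ednra were listed at 0 in all 6 libraries and Ednrb and Agtr1a reached at most 2.01 normalized counts. Genes were tested with limma on log2(normalized count + 1) where at least 3 libraries had at least 10 normalized counts, with Benjamini-Hochberg adjustment over the 14096 genes tested, and fold changes are on that scale, where those of low genes come out too small. SE is the standard error of a log2 fold change. Of the 10 receptors 6 were tested, and all 6 had an adjusted p under 0.05, 5 of them upward and 1 downward in GαqKO. Among all genes tested 65.8% had such an adjusted p, 31.8% higher and 34.1% lower. With a log2 fold change over 1 or under -1 as well, 2 receptors were higher and 0 lower, against 10.2% and 10.5% of all genes tested (20.7% in either direction). S1pr3 passed the filter through the GαqKO libraries alone, so it had to differ. Its part in these counts and in the median below is a description. The groups did not overlap for any of the 6 receptors, as was the case for 69.6% of all genes tested. The median log2 fold change of the 6 receptors was 0.53, and that of all genes tested was -0.012. With this many genes differing between the lines, these counts do not set the receptors apart from other genes.

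**Figure D1:**
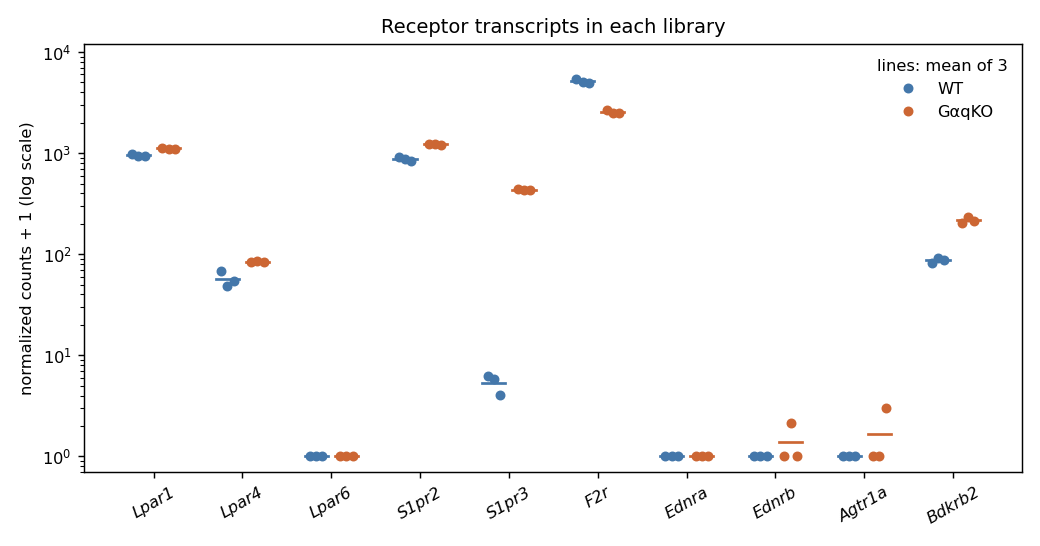
Normalized counts plus 1 on a log axis for the 10 receptor genes in each of the 3 WT (blue) and 3 GαqKO (orange) libraries, with a line at the mean of each group. The largest gap between the groups is that of S1pr3 (4.38 against 432 normalized counts on average), and Lpar6 and Ednra lie at 0 in each library.

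**Figure D2:**
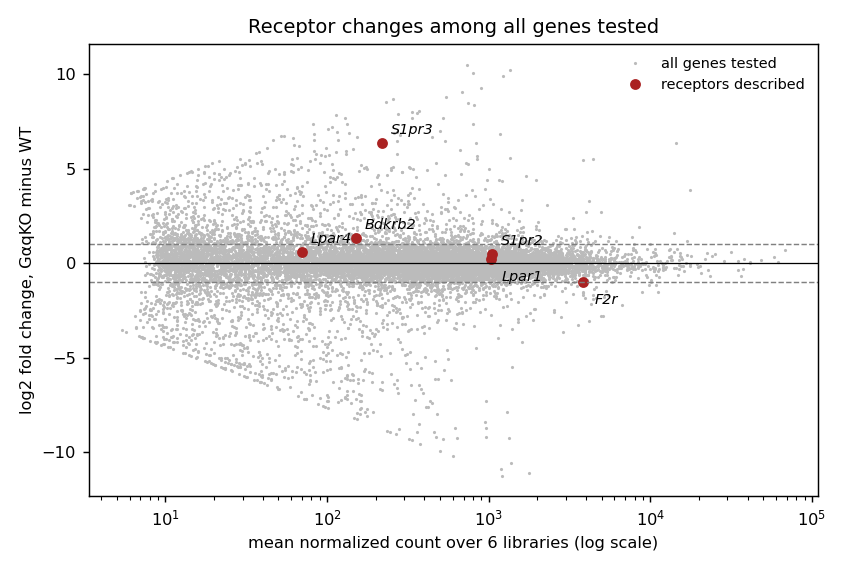
Log2 fold change (GαqKO minus WT) against the mean normalized count over the 6 libraries on a log axis, for the 14096 genes tested (grey) and the 6 receptors tested (red), with dashed lines at a log2 fold change of 1 and -1. S1pr3 and Bdkrb2 lie above the upper line and F2r lies at the lower one.

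The 250 bases before the annotated start of S1pr3, Bdkrb2 and F2r are shown because these were the 3 receptors with the largest changes. They were read from GRCm39 at the canonical transcript start of GENCODE release 39, 5′ to 3′ on the strand of the gene, and no annotated exon overlaps them. The window of S1pr3 lies in the first intron of another S1pr3 transcript. Capitals mark matches on either strand to any of 7 motifs, which were the GC box with the letters GGGCGG, the CCAAT box with its own letters, the TATA box with the letters TATAAA, the AP-1 site with the letters TGACTCA, the TEAD site with the letters GGAATG, the CRE with the letters TGACGTCA and the E-box with the letters CACGTG. Their matches did not overlap in these windows.
S1pr3 (chr13:51562425-51562674, plus strand): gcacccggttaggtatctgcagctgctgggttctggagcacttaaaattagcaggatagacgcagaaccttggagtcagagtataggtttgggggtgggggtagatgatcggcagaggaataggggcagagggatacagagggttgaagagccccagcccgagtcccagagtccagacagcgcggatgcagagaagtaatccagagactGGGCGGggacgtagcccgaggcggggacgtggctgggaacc
Bdkrb2 (chr12:105529133-105529382, plus strand): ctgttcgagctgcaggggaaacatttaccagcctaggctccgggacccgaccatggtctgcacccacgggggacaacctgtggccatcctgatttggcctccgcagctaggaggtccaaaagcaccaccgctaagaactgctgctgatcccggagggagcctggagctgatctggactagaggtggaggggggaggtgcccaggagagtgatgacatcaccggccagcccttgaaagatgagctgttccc
F2r (chr13:95755178-95755427, minus strand): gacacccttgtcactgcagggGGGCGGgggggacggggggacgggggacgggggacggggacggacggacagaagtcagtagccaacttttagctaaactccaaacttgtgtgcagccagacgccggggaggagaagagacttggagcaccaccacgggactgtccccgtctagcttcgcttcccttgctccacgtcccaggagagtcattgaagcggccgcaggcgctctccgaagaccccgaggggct
S1pr3 and F2r each held 1 GC box, a motif present in 36.3% of 21770 protein-coding promoters of the same length. No match to the other 6 motifs lay in any of the 3 windows. These motifs occur in 36.5% (CCAAT box), 11.9% (TATA box), 4.02% (AP-1), 12.1% (TEAD), 1.69% (CRE) and 6.26% (E-box) of those promoters. The window of F2r held 18 CG dinucleotides, that of S1pr3 11 and that of Bdkrb2 8, where the median promoter held 8. A match, or the lack of one, describes the letters in these windows and not the binding of a factor.

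S1pr3 and S1pr2 encode receptors for sphingosine-1-phosphate, a lipid made by the sphingosine kinases. S1pr3 (ENSMUSG00000067586.5; GRCm39 chromosome 13, 51561702 to 51576833) had 5.22, 4.86 and 3.05 normalized counts in the WT libraries and 436, 432 and 428 in those labelled GαqKO. Each WT value stood for 5 reads or fewer, and the 3 GαqKO values lay close together. The means were 4.38 ± 1.16 and 432 ± 3.87 normalized counts (SD, 3 libraries each), a ratio of 98.7 with a 95% exact binomial interval of 58.1 to 188, which covers counting error only. S1pr3 passed the filter through the GαqKO libraries alone, so it could be tested only as a rise. Its adjusted p is therefore a description. The fitted log2 fold change was 6.36 (SE 0.216, limma adjusted p = 1.5e-11). It ran from 5.55 to 6.64 over the alternative settings that tested it. Part of the gene, 17.6% of its exon bases, lies inside the span of the long noncoding gene Gm32834 on the other strand.

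S1pr2 (ENSMUSG00000043895.7; chromosome 9, 20873657 to 20914139), a receptor that couples strongly to G12 and G13, had 924, 880 and 825 normalized counts in WT and 1224.5, 1239.5 and 1199 in the libraries labelled GαqKO. All WT values lay below all GαqKO values. The log2 fold change was 0.48 (SE 0.0549, limma adjusted p = 3.7e-06). The third tested receptor of this lipid, S1pr1, which couples to Gi, rose from 36.9 ± 8.48 to 155 ± 23.6 normalized counts (SD, 3 libraries each), which is 2.05 in log2 fold change (limma adjusted p = 5.15e-07). S1pr4 and S1pr5 were under the filter on low values, with S1pr5 at 5.22, 3.89 and 4.07 normalized counts in WT and 0, 1.16 and 2.01 in the libraries labelled GαqKO.

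Among the lysophosphatidic acid receptors, Lpar1 and Lpar4 rose slightly and Lpar2 fell. Lpar1 (ENSMUSG00000038668.15; chromosome 4, 58435250 to 58554635), the main receptor of this lipid in many fibroblasts, had 989, 943 and 931 normalized counts in WT and 1116.5, 1109 and 1108 in the libraries labelled GαqKO. The gap between the groups was larger than the spread within them, but the log2 fold change was only 0.22 (SE 0.05, 95% interval 0.11 to 0.33, limma adjusted p = 0.00156). Lpar4 (ENSMUSG00000049929.8; chromosome X, 105964206 to 105977506), a receptor more closely related to Lpar6 than to Lpar1, had 66.8, 47.6 and 52.9 normalized counts in WT. The libraries labelled GαqKO had 82.6, 85.6 and 82.6 normalized counts of Lpar4, all above WT. Its log2 fold change was 0.59 (SE 0.178, limma adjusted p = 0.00991), and the call was lost with DESeq2 on the recovered reads of 5 libraries (adjusted p = 0.123). The other settings apart from limma's treat test, which asks for a log2 fold change beyond 1 and gave 1, gave adjusted p-values of 0.00455 to 0.0441 for Lpar4.

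Lpar6 (ENSMUSG00000033446.8; chromosome 14, 73475335 to 73480734, plus strand) was listed at 0 in each library. Its only exon lies wholly inside the span of Rb1, the retinoblastoma gene on the opposite strand, which had 27.1, 27.2 and 28.5 normalized counts in WT and 65.7, 49.7 and 53.4 in the libraries labelled GαqKO. Lpar2, which is not in the list of 10 and couples to Gi, Gq and G12, fell from 1107 ± 34.9 to 485 ± 15.1 normalized counts (SD, 3 libraries each), which is -1.19 in log2 fold change (SE 0.0569, limma adjusted p = 4.42e-10). Lpar3 and Lpar5 were under the filter.

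F2r (ENSMUSG00000048376.7; chromosome 13, 95737382 to 95755177) encodes PAR1, the thrombin receptor, which is switched on when the protease cuts its extracellular end. It had 5417, 5061 and 4924 normalized counts in WT and 2683, 2507 and 2512 in the libraries labelled GαqKO. Even the lowest WT library lay far above the highest GαqKO library. The log2 fold change was -0.999 (SE 0.0477, 95% interval -1.10 to -0.896, limma adjusted p = 4.3e-10), so F2r stood just short of the fold threshold of 1. It passed that threshold without WT replicate 2 (-1.01), without WT replicate 3 (-1.03) and without GαqKO replicate 1 (-1.03), which turned the count of receptors past both thresholds and lower from 0 to 1.

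A second protease-activated receptor, F2rl1 or PAR2, which responds to trypsin-like proteases, had 139, 121 and 92.6 normalized counts in WT. In the libraries labelled GαqKO it was listed at 0, 0 and 1.01 normalized counts, so the groups were far apart. The ratio of the means was 350 with an exact binomial interval of 62.9 to 13982 for counting error, and the adjusted p was 4.85e-09 (limma). F2rl1 passed the filter through the WT libraries alone, so it could be tested only as a fall. F2rl2 was listed at 0 in each library and lies wholly inside the span of Iqgap2, and F2rl3 was under the filter.

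Bdkrb2 (ENSMUSG00000021070.7; chromosome 12, 105529383 to 105561503) encodes the B2 receptor, which responds to bradykinin without prior induction. Its normalized counts were 80.4, 90.3 and 87.5 in WT and 201, 235 and 211 in the libraries labelled GαqKO, with no overlap. The log2 fold change was 1.31 (SE 0.123, limma adjusted p = 4.88e-07). In a test against a log2 fold change of 1 instead of 0, limma's treat, the adjusted p of Bdkrb2 was 0.0865, and the other settings gave 6.81e-09 to 8.7e-05. Bdkrb1, the inducible B1 receptor for kinin fragments, which passed the filter through the GαqKO libraries alone, rose from 3.71 ± 1.2 to 16.7 ± 1.89 normalized counts (SD, 3 libraries each), a ratio of 4.5 with an exact binomial interval of 2.34 to 9.68 (limma adjusted p = 0.000692).

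The endothelin and angiotensin receptors could not be compared. Ednra (ENSMUSG00000031616.8; chromosome 8, 78386590 to 78451552, minus strand), the ETA receptor, was listed at 0 in all 6 libraries. All of its exon bases lie inside the span of the long noncoding gene 4933431K23Rik on the opposite strand, which had 1.94 to 5.09 normalized counts. Across the table, 84.3% of the 357 protein-coding genes that lie wholly inside genes of the opposite strand without sharing an exon were listed at 0 in every library, against 29.0% of the 9686 that overlap no other counted gene. For Ednra and Lpar6 a value of 0 is therefore given only as listed. Ednrb (ENSMUSG00000022122.16; chromosome 14, 104052053 to 104081900), the ETB receptor, overlaps no other counted gene and had 1.16 normalized counts in GαqKO replicate 2 and 0 elsewhere. Agtr1a (ENSMUSG00000049115.16; chromosome 13, 30518942 to 30566850), the main receptor of angiotensin II in rodents, had 2.01 normalized counts in GαqKO replicate 3 and 0 elsewhere. Both were below the 3 counts that a library at 0 still allows, so neither a level nor a difference was detectable at this depth. Agtr1b and Agtr2 were under the filter as well.

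Levels of different receptors were compared per kilobase of exon, counting each exon base of a gene once. In WT the order was F2r with 1155 ± 57.2 normalized counts per kilobase, Lpar1 with 119 ± 3.78, S1pr2 with 86.2 ± 4.86, Bdkrb2 with 20.1 ± 1.2, Lpar4 with 12.6 ± 2.25 and S1pr3 with 0.897 ± 0.238 (SD, 3 libraries each). In the libraries labelled GαqKO it was F2r with 577 ± 22.6 normalized counts per kilobase, Lpar1 with 138 ± 0.594, S1pr2 with 120 ± 1.99, S1pr3 with 88.5 ± 0.794, Bdkrb2 with 50.4 ± 4.04 and Lpar4 with 18.9 ± 0.387 (SD, 3 libraries each). Neighbours in both orders did not overlap between libraries. F2r led in each group, and S1pr3 went from the sixth place to the fourth.

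The sum of the members fell from 1393 ± 66.7 to 994 ± 21.3 normalized counts per kilobase (SD, 3 libraries each; no test was made on the sum). F2r made up 82.9% ± 0.144 of that sum in WT and 58.1% ± 1.10 in the libraries labelled GαqKO (SD, 3 libraries each). The share of S1pr3 went from 0.064% ± 0.0149 to 8.91% ± 0.119, that of S1pr2 from 6.19% ± 0.113 to 12.1% ± 0.26, that of Lpar1 from 8.53% ± 0.139 to 13.9% ± 0.237, that of Bdkrb2 from 1.45% ± 0.145 to 5.08% ± 0.472 and that of Lpar4 from 0.904% ± 0.124 to 1.91% ± 0.0629. A share rises where another receptor falls, and the sum leaves out what Ednra and Lpar6 may hold. With the longest transcript as the length, the share of F2r was 75.6% in WT and 49.6% in GαqKO.

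**Figure D3:**
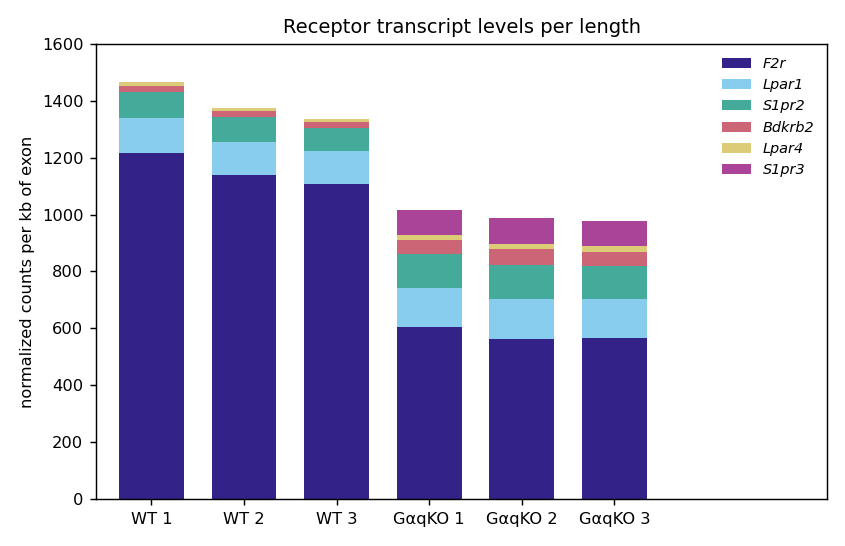
Stacked normalized counts per kilobase of exon for the 6 receptors tested, one bar per library. F2r makes up most of each bar, with 1107 to 1218 normalized counts per kilobase in WT and 564 to 603 in GαqKO, and S1pr3 is visible in the GαqKO bars only.

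The rest of the receptor repertoire was read from lists of genes by function. Of the 12 other receptors of the same ligand families, 4 were tested, and 2 were higher and 2 lower past both thresholds, namely S1pr1, Bdkrb1, Lpar2 and F2rl1. Of 36 receptors for other ligands that are known to couple to Gq, 7 were tested, of which 4 were higher and 2 lower past both thresholds. The median log2 fold change of these 7 was 2.76. Among all genes tested 10.2% were higher and 10.5% lower past both thresholds (20.7% in either direction). Most receptors of both lists were low. All 6 receptors of other ligands past both thresholds (Ptgfr, P2ry2, Htr2a, Htr2c, Hrh1 and Adra1b) passed the filter through 1 group alone, as did Bdkrb1 and F2rl1. Genes that pass in this way had to differ, so these counts, this median and the adjusted p-values of these genes are a description. Ptgfr, the receptor of prostaglandin F2 alpha, had 1.04, 2.91 and 1.02 normalized counts in WT and 247, 219 and 236 in the libraries labelled GαqKO. Its ratio was 141 with an exact binomial interval of 59.8 to 433, and its log2 fold change was 6.54 (limma adjusted p = 3.7e-10). P2ry2, a receptor for ATP and UTP, went from 2.71 ± 0.665 to 105 ± 5.89 normalized counts (SD, 3 libraries each; limma adjusted p = 4.45e-09). Htr2c, a serotonin receptor, rose from 3.74 ± 1.62 to 40.0 ± 12.6 normalized counts (SD, 3 libraries each). Hrh1, the histamine H1 receptor, was lower, at 22.3 ± 4.22 normalized counts in WT (SD, n = 3) and 0, 0 and 1.01 in the libraries labelled GαqKO.

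**Figure D4:**
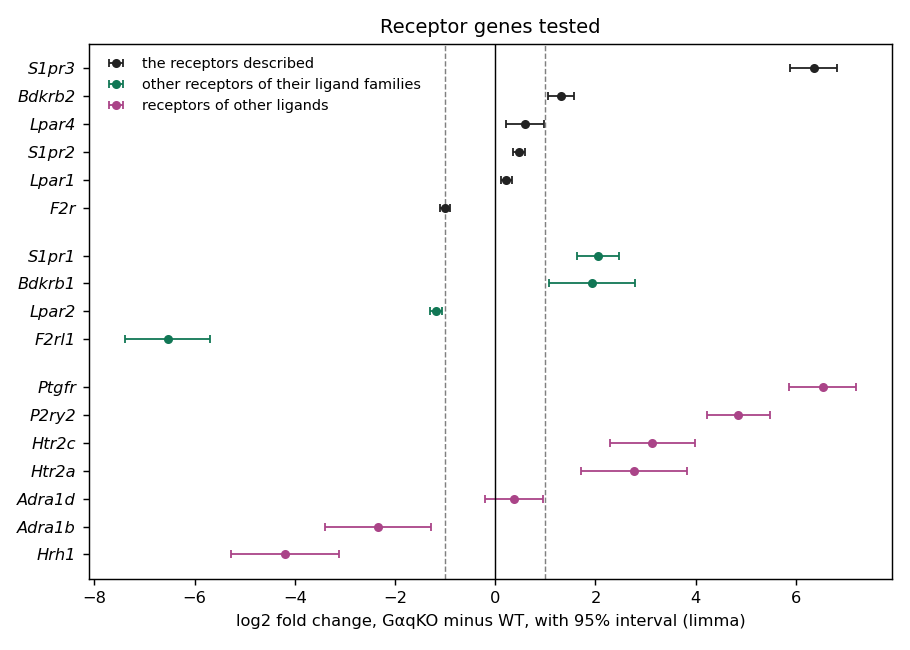
Log2 fold change (GαqKO minus WT) with its 95% interval from limma for the 17 receptor genes tested, in 3 groups, with dashed lines at 1 and -1. S1pr3 (6.36) and Ptgfr (6.54) lie farthest to the right and F2rl1 (-6.54) and Hrh1 (-4.19) farthest to the left.

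Genes that supply the ligands changed in both directions. Of 20 such genes 11 were tested and 9 had an adjusted p under 0.05, 5 upward and 4 downward, with 3 and 4 past both thresholds. Among all genes tested 65.8% had such an adjusted p and 20.7% were past both thresholds. Enpp2 and Agt passed the filter through the GαqKO libraries alone, so they had to differ. Their part in these counts and their adjusted p-values are a description. Spns2, which exports sphingosine-1-phosphate from cells, fell from 252, 300.2 and 233 normalized counts in WT to 10.3, 8.09 and 9.06 in the libraries labelled GαqKO, which is -4.69 in log2 fold change (SE 0.198, limma adjusted p = 1.21e-10). Enpp2, which encodes autotaxin, the secreted enzyme that makes lysophosphatidic acid, had 6.27, 1.94 and 3.05 normalized counts in WT and 77.9, 70.5 and 91.6 in the libraries labelled GαqKO, which is 4.19 in log2 fold change (SE 0.355, limma adjusted p = 1.72e-07). Agt, the precursor of angiotensin, was near 0 in WT, with 0, 0.971 and 0 normalized counts, and had 17.8, 22.0 and 17.1 in the libraries labelled GαqKO. Of its exon bases 34.0% lie inside other genes.

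Edn1, the endothelin-1 gene, fell from 431, 438 and 429 to 85.5, 59.0 and 90.6 normalized counts, which is -2.47 in log2 fold change (SE 0.145, limma adjusted p = 3.63e-09). Ece1, which encodes the enzyme that matures endothelin and was named after its values were seen, fell from 882 ± 47.9 to 369 ± 31.8 normalized counts (SD, 3 libraries each), which is -1.26 in log2 fold change. F3, the tissue factor that starts thrombin formation, was the most abundant tested gene of this list per kilobase on the mean of both groups. In WT alone Edn1 was higher, at 158 normalized counts per kilobase against 138 for F3. The values of F3 were 428 ± 35.7 and 398 ± 27.7 normalized counts in WT and GαqKO (SD, 3 libraries each). Its log2 fold change was -0.10 (95% interval -0.28 to 0.077, limma adjusted p = 0.294). F2, which encodes prothrombin, was under the filter.

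Of 12 genes that break the ligands down, 8 were tested and 6 had an adjusted p under 0.05, 3 upward and 3 downward, with 3 and 1 past both thresholds, against 65.8% and 20.7% of all genes tested. The lipid phosphate phosphatases, cell surface enzymes that inactivate lysophosphatidic acid and sphingosine-1-phosphate, did not move together. Plpp3 rose from 55.3, 56.3 and 45.8 to 317, 335 and 311 normalized counts, which is 2.60 in log2 fold change (limma adjusted p = 6.77e-10). Plpp1 rose as well, from 244 ± 19.5 to 585 ± 33.2 normalized counts (SD, 3 libraries each), which is 1.26 in log2 fold change. Of the exon bases of Plpp1, 36.3% lie inside the spans of other genes. Plpp2, the most abundant of the list per kilobase, fell from 1052 ± 30.1 to 434 ± 24.5 normalized counts (SD, 3 libraries each), which is -1.28 in log2 fold change. Prcp, a lysosomal carboxypeptidase that acts on angiotensin and kinin peptides, rose from 223 ± 23.4 to 453 ± 51.2 normalized counts (SD, 3 libraries each), which is 1.02 in log2 fold change. This value ran from 0.935 to 1.11 over the alternative settings, so Prcp stood at the fold threshold.

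Receptor kinases and arrestins, which switch off active receptors, mostly changed by small amounts. Of 7 such genes 6 were tested and 4 had an adjusted p under 0.05, 3 upward and 1 downward, where 65.8% of all genes tested had one. In this list only Grk5 passed the fold threshold, at 36.0 ± 6.75 and 83.4 ± 12.8 normalized counts (SD, 3 libraries each; log2 fold change 1.19, limma adjusted p = 0.000167). Of the exon bases of Grk5, 83.6% lie inside the spans of other genes. Grk6, the most abundant per kilobase, had a log2 fold change of 0.19 (limma adjusted p = 0.00168).

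**Figure D5:**
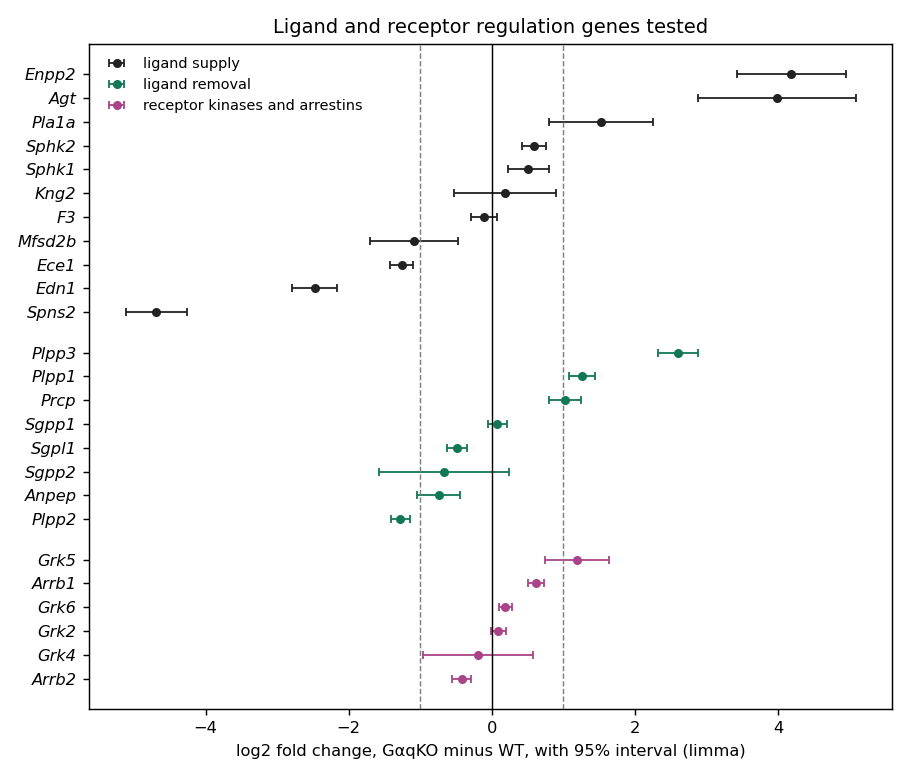
Log2 fold change (GαqKO minus WT) with its 95% interval from limma for the tested genes of ligand supply (black), ligand removal (green) and receptor kinases and arrestins (purple), with dashed lines at 1 and -1. Spns2 (-4.69) and Edn1 (-2.47) lie farthest to the left and Enpp2 (4.19) and Agt (3.99) farthest to the right.

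Genes of the alpha subunits that receptors act through were read in the same way. Of 12 alpha subunit genes 10 were tested and 7 had an adjusted p under 0.05, 4 upward and 3 downward. Past both thresholds 3 were higher and 2 lower. Among all genes tested 65.8% had such an adjusted p and 20.7% were past both thresholds. Gna14 and Gnai1 passed the filter through 1 group alone, so they had to differ, and their part in these counts is a description. Gna14, another member of the Gq class, rose from 3.11 ± 3.13 to 53.3 ± 6.13 normalized counts (SD, 3 libraries each), and Gna15, the remaining member, was under the filter at 9.40 or less in each library. Gnai1, a Gi subunit used by lysophosphatidic acid and sphingosine-1-phosphate receptors, fell from 866, 864 and 870 normalized counts in WT to 6.57, 4.62 and 3.02 normalized counts. Gnao1 rose from 503 ± 56.5 to 2117 ± 25.1 normalized counts (SD, 3 libraries each), and Gnai2, the most abundant alpha subunit per kilobase, had a log2 fold change of -0.23 (limma adjusted p = 0.000951).

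The genes whose pattern was closest to S1pr3 and Bdkrb2 were found by the Euclidean distance between log2 values centred on the WT mean, over the 6 libraries. Closest to S1pr3 were Grem1, a secreted BMP antagonist, at a distance of 0.424, and Stc2, a secreted glycoprotein, at 0.541. Grem1 went from 345 to 28489 normalized counts on average and Stc2 from 18.8 to 1638. Closest to Bdkrb2 were Dhrs1 at 0.122 and the kinase gene Lrrk2 at 0.127, with means of 235 and 567 and of 275 and 672 normalized counts.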

How the data were processed

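The 6 libraries were grouped by their labels. The authors sequenced stranded, poly-A selected RNA in read pairs and used Rbowtie2 on GRCm39, featureCounts with GENCODE release 32, and DESeq2. The deposited values are a signal, gene counts divided by 1 size factor per library. Tool versions, the strand setting and a filter are not given in the sources used here. Symbols, coordinates and exon lengths were looked up in GENCODE release 39 (GRCm39), where 56310 of 56953 identifiers were found (98.9%).

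Because the values are not raw counts, the test was limma, as planned for that case, with a trended prior on log2(normalized count + 1). A gene was kept if 3 or more libraries held at least 10 normalized counts, or 2 or more when a library was left out. In 5 libraries 100.0% of low values were whole multiples, within 0.001, of what 1 read is worth, so edgeR and DESeq2 were run on the recovered reads of those 5, while the reads of GαqKO replicate 3 were not accepted by a check of the unit. The floor was 3 counts, and 95% exact binomial intervals take 1 normalized count as about 1 read; both cover counting error only. Replicates of a group differed by a chi-square per gene of 2.44 to 5.5, and p-values measure only the spread between these libraries.

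On simulated data over 13848 genes, limma recovered 200 of 200 changed genes (100 of 100 at each log2 fold change, 1.5 and 3) with 0 false calls past both thresholds. The changed genes were drawn from abundant genes only, and all genes were given the same spread. The simulation therefore checks that the code runs and cannot tell how low genes, smaller changes or changes near the fold threshold fare. The receptors and gene lists were chosen with earlier results of these data known. Named genes were the 10 receptors, Gnaq, Gna11, Gna14 and Gna15, up to 4 genes with the largest changes past the thresholds and the most abundant tested gene of each list, and the 2 genes nearest in pattern to each receptor past the thresholds. R 4.3.3, limma 3.58.1, edgeR 4.0.16, DESeq2 1.42.0 and scipy 1.17.1 were used.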

Additional observations from a re-analysis of the deposited data

How the results depend on the processing

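The 6 tested receptors kept their direction and their side of an adjusted p of 0.05 in 101 of 107 values over scaling, filter, pseudocount, prior spread, replicate block, count tests and libraries left out. The other 6 were Lpar4 with DESeq2 and 5 receptors under limma's treat test, which by its construction asks for a log2 fold change beyond 1. Depth limits Ednrb, Agtr1a and the WT level of S1pr3.

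A filter of 10 normalized counts in all 6 libraries, which by its construction drops genes absent from a group, gave 831 genes higher and 765 lower past both thresholds against 1432 and 1486. It left 1 receptor higher (S1pr3 was not tested), 1 higher and 1 lower among the other receptors of the ligand families, 0 and 0 among receptors of other ligands, 0 higher in ligand supply and 1 lower among alpha subunits. The treat test gave 847 genes higher, 1 receptor higher, 1 higher receptor of the ligand families, 1 lower receptor of other ligands and 0 receptor kinases or arrestins. With no filter, 5 genes of ligand supply were higher. Genes of ligand removal that were higher past both thresholds numbered 3, but 2 with edgeR, DESeq2 or the treat test. They also numbered 2 without WT replicate 2, WT replicate 3 or GαqKO replicate 3. With a library left out, receptors lower past both thresholds ranged from 0 to 1, lower receptors of other ligands from 2 to 4 and lower genes of ligand removal from 1 to 2; the largest counts of the second came without GαqKO replicate 1 or 2, and those of the third without WT replicate 3 or GαqKO replicate 1 or 2.

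With the longest transcript as the length, shares of the summed level were 14.5% and 22.2% for Lpar1 in WT and GαqKO, 7.64% and 14.0% for S1pr2, 75.6% and 49.6% for F2r, and in GαqKO 1.65% for Lpar4, 8.31% for S1pr3 and 4.33% for Bdkrb2. The replicate numbers did not pair the libraries, since deviations of same-numbered libraries correlated at -0.0453, -0.148 and -0.0638 and not every library correlated best with its own number. The replicate block gave 1421 genes higher and 1478 lower, with 2 receptors higher and 0 lower.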

Other observations

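Receptor genes that lie wholly inside the span of another counted gene were mostly listed at 0. Of the 58 receptor genes in the 3 lists, 7 lie so, and 6 of them (85.7%) were listed at 0 in all 6 libraries, among them Lpar6 inside Rb1, Ednra inside 4933431K23Rik, F2rl2 inside Iqgap2, Htr2b inside Psmd1 and Avpr1a inside Gm48877. The remaining one, Adra1d, had 26.5 to 54.4 normalized counts. Of the other 51 receptor genes, 4 (7.84%) were listed at 0 throughout. Gnaz, an alpha subunit gene inside Rsph14, was also listed at 0 in each library. Values for these genes from a count made by exon and strand were not analysed here.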
